A study of Mus musculus with 6 samples.

Results

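Transcripts of 8 chemokine receptor genes, Ccr1, Ccr2, Ccr3, Cx3cr1, Cxcr2, Cxcr4, Ackr3 and Ccrl2, were compared in femoral marrow of P2rx7 knockout and wild-type (WT) mice. They were taken by symbol from a deposited table of 55291 genes, in which all 8 have a row. The samples were 3 knockouts (A, B and C) and 3 WT mice (WT 1, 2 and 3), all 6 to 8 weeks old. Each sample, labelled as flushed femoral marrow, gave 1 bulk RNA-seq library and was taken as 1 mouse, so p-values reflect the spread between samples. The product of P2rx7 is a cation channel opened by extracellular ATP, and the series is about ATP sensing in bone. The labels give neither the strain nor the sex of the mice, nor the part of P2rx7 that the knockout allele lacks.

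Chemokine receptors are membrane proteins of the G protein-coupled family that steer leukocytes along gradients of secreted chemokines. In marrow they are best known for holding stem cells and neutrophils in place (Cxcr4 and its ligand Cxcl12), for letting neutrophils (Cxcr2) and inflammatory monocytes (Ccr2) leave for the blood, and for marking eosinophils (Ccr3) and patrolling monocytes and tissue macrophages (Cx3cr1). Ccr1 is found on monocytes, macrophages and osteoclast precursors. Ackr3 and Ccrl2 are atypical receptors, which bind a ligand (Cxcl12, and the protein chemerin encoded by Rarres2) without coupling to G proteins in the usual way.

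Ccr1, Ccr3 and Ccr2 lie in this order in a stretch of 151 kb on chromosome 9 (GRCm38, 123962124 to 124113557), with Ccr1 on the minus strand and both others on the plus strand. Cx3cr1 and Ccrl2 lie elsewhere on the same chromosome, and Cxcr2, Ackr3 and Cxcr4 on chromosome 1. Sequences just before the transcription start are shown for the 4 members whose 150 bases there hold none of the gene's own exons in the deposited table: Ccr1, the most abundant member, Ccr3, which differed between the genotypes without overlap, and both receptors of Cxcl12. The RefSeq promoter table of GRCm38.p6 matched all 8 members. Capitals mark the letters of 4 motifs found on either strand: GAGGAA, a core bound by the myeloid factor PU.1, AGATAA, a core of GATA factors, TATAAA, the TATA box, and GGGCGG, the GC box.
Ccr1, chr9:123968693-123968842, minus strand: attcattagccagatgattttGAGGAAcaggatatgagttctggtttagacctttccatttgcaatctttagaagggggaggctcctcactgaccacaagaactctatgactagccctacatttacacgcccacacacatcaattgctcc
Ccr3, chr9:124021821-124021970, plus strand: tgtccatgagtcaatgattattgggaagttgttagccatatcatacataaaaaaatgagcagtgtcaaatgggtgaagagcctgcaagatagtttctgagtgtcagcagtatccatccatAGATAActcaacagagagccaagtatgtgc
Cxcr4, chr1:128592300-128592449, minus strand: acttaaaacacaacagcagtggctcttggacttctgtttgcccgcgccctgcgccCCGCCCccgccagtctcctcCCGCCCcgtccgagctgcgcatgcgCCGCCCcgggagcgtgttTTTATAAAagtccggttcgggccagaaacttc
Ackr3, chr1:90203830-90203979, plus strand: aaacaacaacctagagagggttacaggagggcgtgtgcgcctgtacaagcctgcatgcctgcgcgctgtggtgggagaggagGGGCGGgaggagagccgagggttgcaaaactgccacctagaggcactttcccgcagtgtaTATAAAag

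The windows of Cxcr4 and Ackr3 hold the letters of both the GC box and the TATA box, and their bases are 63.3% and 58.0% G or C. The windows of Ccr1 and Ccr3 hold neither and are 44.0% and 40.0% G or C, against a median of 54.0% over 32851 promoter windows of the same length. GAGGAA stands in the Ccr1 window and in 14.5% of all windows, and AGATAA in the Ccr3 window and in 5.65%. TATAAA is in 7.57% and GGGCGG in 28.6% of all windows. In the Cxcr4 window the TATA letters are found on both strands at overlapping positions. These are matches of letters and were not tested for function.

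The libraries held 18716704 to 23575652 counts each. P2rx7 was lower in every knockout library, at 39.4, 38.4 and 37.5 CPM (counts scaled to library size) in knockouts A, B and C, against 60.5, 60.4 and 62.7 CPM in WT 1, 2 and 3 (log2 fold change -0.67 ± 0.05 SE, adjusted p = 0.0109, edgeR's quasi-likelihood test; exact two-sided permutation p = 0.1, the smallest that 3 against 3 allows). Its adjusted p was 0.0763 without knockout B and 0.0973 without knockout C. Genes of other tissues set knockouts B and C apart: the growth hormone gene Gh gave 23 counts in knockout A and none in the other knockouts, against 54, 82 and 75 in WT 1, 2 and 3. For the albumin gene Alb the counts were 0, 46 and 36 in the knockouts in the same order, against 0 in all 3 WT libraries.

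Several defining genes of red cells and of T and B cells were absent or nearly so, although the samples are labelled as bone marrow. The red cell gene Hba-a1 had at most 2 counts in any library and Slc4a1 had 0, the T cell gene Cd3e and the B cell recombinase gene Rag2 had 0 in all 6. Other genes on these lists were expressed: Tfrc at 106.5 to 131.7 CPM, Ebf1 at 113.6 to 177.4 and Cd4 at 5.71 to 10.7. With them, the red cell list summed to 126.5 to 137.2 CPM in knockouts and 110.3 to 112.8 in WT. The B cell precursor list summed to 170.3 to 184.2 CPM in knockouts and 119.3 to 163.0 in WT. Tfrc made up most of the red cell sum and Ebf1 most of the B cell precursor sum. At most 10 counts in any library were found for 4 of the 6 red cell genes and 6 of the 10 B cell precursor genes. Neutrophil genes were mixed, with at most 12 counts of Ly6g and 12.7 to 119.9 CPM of the granule gene Ngp. In contrast, the 10 macrophage markers summed to 9225 to 10290 CPM in knockouts and 8445 to 9032 CPM in WT, and the stromal list of 8 genes summed to 5178 to 6127 CPM in knockouts and 2035 to 4194 CPM in WT. Most of the stromal sum was Cxcl12, and the other 7 genes reached 1157 to 1267 CPM in knockouts and 708 to 1026 CPM in WT. In such bulk samples fewer cells of a type and less RNA per cell cannot be told apart.

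By level per transcript length, taken as the mean over all 6 libraries, Ccr1 stood far above the other members. In FPKM, which scale a count by exon length and library size, it was at 53.9 ± 3.34 in knockouts and 54.9 ± 5.69 in WT (SD, n = 3 each), and its lowest library, at 48.4 FPKM, exceeded the highest library of any other member. Cxcr4 followed at 18.5 ± 1.66 FPKM in knockouts and 22.4 ± 2.90 in WT, and Cx3cr1 at 4.08 ± 1.68 FPKM in knockouts and 12.2 ± 6.84 in WT. Ccr2 came next by that mean at 5.14 ± 3.32 FPKM in knockouts, where it was above Cx3cr1 on average, and 3.46 ± 1.80 in WT, and Ccr3 at 1.55 ± 0.429 in knockouts and 2.87 ± 0.596 in WT. The atypical receptors were lower, Ackr3 at 1.47 ± 0.530 FPKM in knockouts and 1.47 ± 0.389 in WT, and Ccrl2 at 0.957 ± 0.171 in knockouts and 0.980 ± 0.146 in WT. Cxcr2 was lowest, at 0.126 ± 0.0766 FPKM in knockouts and 0.181 ± 0.0519 in WT. The ranges of neighbours in this order overlapped from Cxcr4 down to Ccrl2. Cxcr4 was above Cx3cr1 in all 6 libraries, while Cx3cr1 was above Ccr2 in 4, Ccr2 above Ccr3 in 4, Ccr3 above Ackr3 in 5 and Ackr3 above Ccrl2 in 5. Ccrl2 lay above Cxcr2 without overlap.

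Among 25 receptor genes examined, which include the chemerin receptor genes Cmklr1 and Gpr1, 9 averaged over 1 FPKM and 15 had at most 17 counts in any library, the highest count of Cxcr2. The abundant genes outside the 8 were Cmklr1 at 30.5 FPKM in knockouts and 27.0 in WT, the chemokine scavenger Ackr4 at 12.8 in knockouts and 8.95 in WT, and Cxcr3 at 4.03 in knockouts and 3.06 in WT. Cxcr3 is a receptor of T and NK cells, and several other receptors of lymphocytes had few or no counts. The T cell receptor Ccr8 had 0 counts in all 6 libraries, Ccr6 and Ccr4 at most 1 and 5, and the B cell follicle receptor Cxcr5 at most 5. Ccr10 had 9 to 17 counts, Ccr7 1 to 12, Cxcr6 4 to 13, Xcr1 2 to 12 and Ccr9 2 to 9. The remaining genes, Cxcr1, Ackr1, Ackr2, Gpr1 and Ccr1l1, had at most 8. Ccr1l1, a closely related copy of Ccr1, thus took few reads beside the 2737 to 3774 counts of Ccr1.

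**Figure D1:**
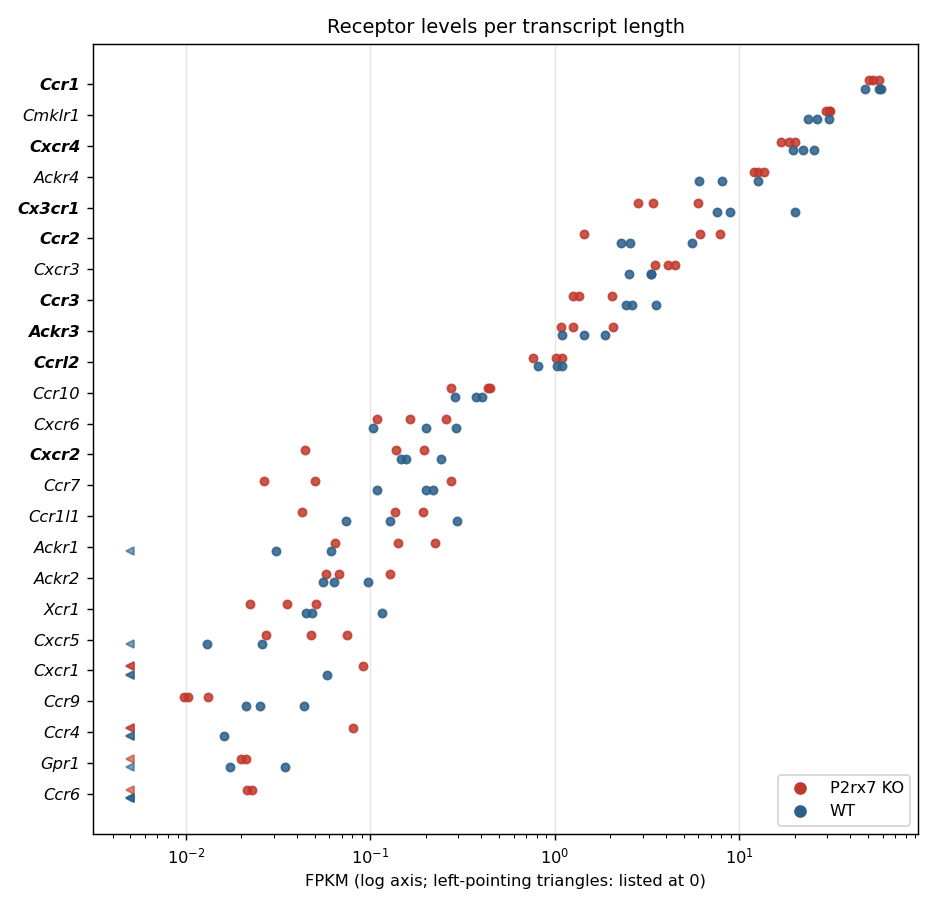
Levels of 24 receptor genes in FPKM on a log axis, 1 point per library, with the P2rx7 knockouts above the WT in each row, the 8 members in bold and Ccr8, with no counts, left out. Ccr1 stands alone at the top between 48.4 and 58.8 FPKM, and Cxcr2 lies between 0.0444 and 0.241 FPKM among receptors with few counts.

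Between the genotypes, none of the 7 members that passed the filter on low counts reached an adjusted p of 0.05 in edgeR, where 0.103% of the 15478 genes tested did (16 genes; 0.0581% higher and 0.0452% lower in knockouts). Of the 7, 3 had an unadjusted p below 0.05 (Ccr3, Cx3cr1 and Cxcr4, all lower in knockouts), against 16.6% of all genes tested. DESeq2 called 1 of the 7, Ccr3, and 3.20% of all genes. Without the filter, edgeR called 2 of the 8, Ccr3 and Cx3cr1, and 3.20% of the 30301 genes with a count. Cxcr2 did not pass the filter, and its adjusted p without it was 0.708. The median log2 fold change of the 7 was -0.03, against 0.0042 over all genes tested. In 2 of the 7, Ccr3 and Cx3cr1, every knockout was below every WT library, as in 10.4% of all genes tested.

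**Figure D2:**
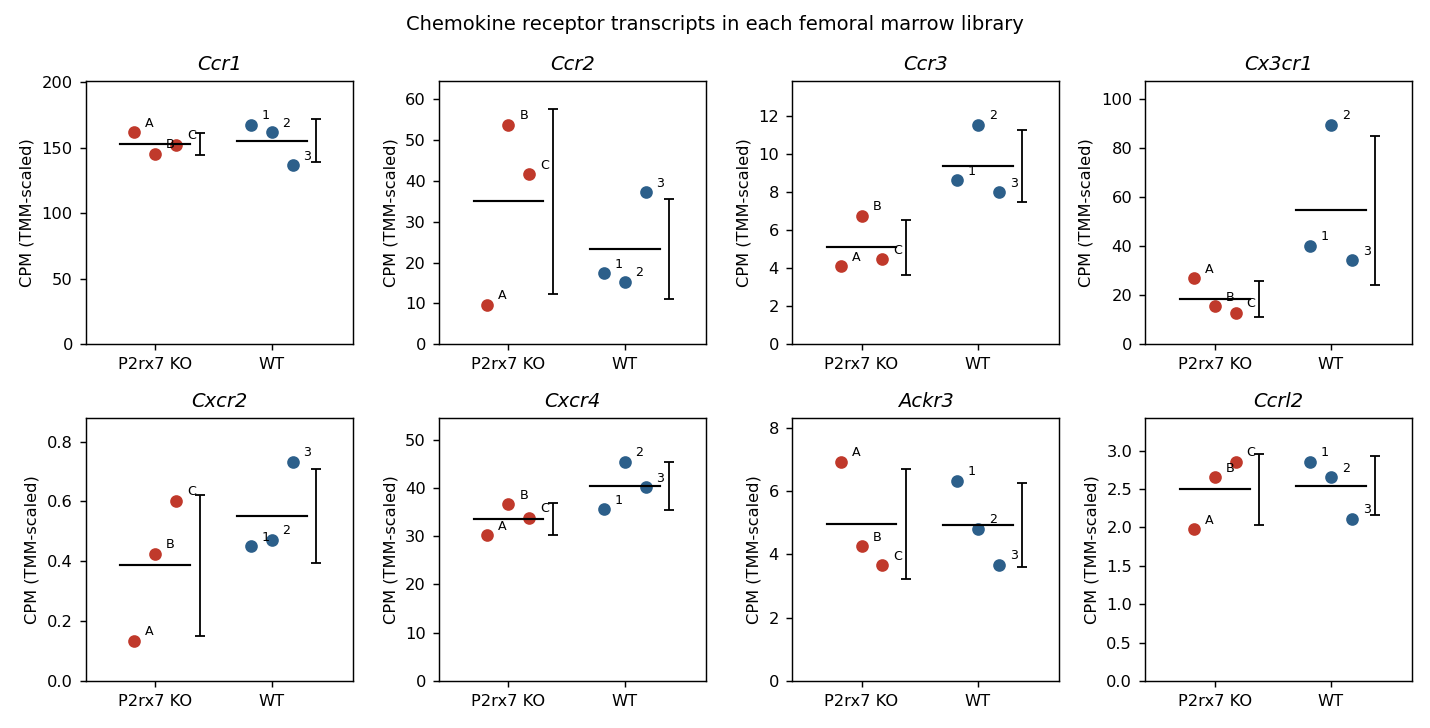
CPM of the 8 receptors in each library, with P2rx7 knockouts A, B and C left of WT 1, 2 and 3; lines are means and bars SD (n = 3). For Ccr3 the knockouts lie at 4.09 to 6.75 CPM and the WT at 7.98 to 11.5 CPM, for Cx3cr1 the knockouts lie at 12.8 to 26.8 CPM and the WT at 34.2 to 89.6 CPM, whereas the genotypes overlap for the other 6 genes.

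Cx3cr1, the receptor of the membrane-bound chemokine fractalkine, had the largest fold change of the 7 and the widest range over the libraries. It was at 26.8, 15.6 and 12.8 CPM in knockouts A, B and C, against 40.3, 89.6 and 34.2 CPM in WT 1, 2 and 3. WT 2 was far above the other WT mice, and knockout A lay nearest to the WT range. The log2 fold change was -1.57 ± 0.40 (SE; 95% interval -2.49 to -0.64) with an adjusted p of 0.162 in edgeR. Without WT 2 it was -1.01 (adjusted p = 0.189). With a term for knockouts B and C, which leaves knockout A alone against WT, it was -1.03. The order of the libraries, from WT 2 down to the knockouts, was that of the first principal component of all genes (52.4% of the variance) but for the places of knockouts B and C. Cx3cr1 shares 78 of its 4505 exon bases with Gm33858 on the other strand, which had at most 4 counts.

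Markers of the cells that carry Cx3cr1 did not all move with it. The list of 7 nonclassical monocyte markers summed to 93.2 to 118 CPM in knockouts and 114 to 123 CPM in WT, with 0 of 7 past the threshold and 6 of 7 log2 fold changes negative. Of the 10 macrophage markers, 8 had positive and 2 negative log2 fold changes, while 7924 of all 15478 genes tested had a positive value. The 2 negative macrophage markers, the scavenger receptor gene Cd163 (-0.74, adjusted p = 0.0486) and the complement receptor gene Vsig4 (-1.98, adjusted p = 0.0142), passed the threshold. They were 2 of 10 markers tested, where 0.0452% of all genes tested were called lower. The complement genes C1qb and C1qa, the macrophage markers highest in FPKM, had log2 fold changes of 0.13 and 0.10 (adjusted p = 0.423 and 0.567, edgeR). The part of these markers in the Cx3cr1 values was not tested. The fractalkine gene Cx3cl1 averaged 19.4 ± 1.74 CPM in knockouts, against 21.8 ± 2.73 CPM in WT (adjusted p = 0.462, edgeR).

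Ccr3, the receptor of the eotaxins Ccl11 and Ccl24, was counted 91, 127 and 89 times in knockouts A, B and C, against 172, 269 and 185 times in WT 1, 2 and 3. In CPM this was 4.09, 6.75 and 4.47 in the knockouts, against 8.62, 11.5 and 7.98 in WT. Knockout B, the highest knockout, stayed below WT 3, the lowest WT. The log2 fold change was -0.89 ± 0.22 (SE; 95% interval -1.38 to -0.39), with an adjusted p of 0.159 in edgeR. DESeq2 gave -0.89 with an adjusted p of 0.0122, and edgeR without the filter on low counts gave an adjusted p of 0.00275. With 1 library left out, the adjusted p was 0.0756 to 0.390 in edgeR. A term for knockouts B and C, which leaves knockout A alone against WT, gave a log2 fold change of -1.20.

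Genes that define eosinophils were low beside Ccr3. The 8 eosinophil markers together summed to 0.585 to 3.40 CPM in knockouts and 1.59 to 2.98 CPM in WT, and 0 of 2 tested passed the threshold. Of these, Epx had at most 3 counts and the interleukin-5 receptor gene Il5ra at most 1. Prg2, which encodes major basic protein, had the most counts, at 5, 34 and 21 in knockouts A, B and C, against 28, 13 and 40 in WT 1, 2 and 3. Basophils also carry Ccr3. Their protease gene Mcpt8 was at 2.61, 2.76 and 2.26 CPM in knockouts A, B and C, against 3.01, 5.32 and 2.63 CPM in WT 1, 2 and 3 (adjusted p = 0.382, edgeR). The list of 7 basophil and mast cell markers summed to 5.76 to 9.83 CPM in knockouts and 5.67 to 8.49 CPM in WT, with 0 of 3 tested past the threshold. The other 2 of these, the mast cell protease gene Cpa3 and the transcription factor gene Gata2, had positive log2 fold changes of 1.93 and 0.49 (adjusted p = 0.229 and 0.423, edgeR), and Cpa3 was higher in every knockout. Of the eotaxins, Ccl11 had at most 3 counts and Ccl24 averaged 1.72 ± 0.263 CPM in knockouts, against 1.38 ± 0.379 CPM in WT (adjusted p = 0.570, edgeR).

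Ccr2, the receptor of the monocyte chemoattractants Ccl2, Ccl7 and Ccl12, varied more between mice of a genotype than between the genotypes. It was at 9.71, 53.7 and 41.6 CPM in knockouts A, B and C, against 17.4, 15.3 and 37.3 CPM in WT 1, 2 and 3. Knockouts B and C and WT 3 were high, and knockout A was the lowest of all 6, so that the lowest and the highest library were both knockouts, 5.53-fold apart. The log2 fold change was 0.57 ± 0.56 (SE; 95% interval -0.72 to 1.87; adjusted p = 0.651, edgeR). Leaving out WT 3 gave 1.09, leaving out knockout A 1.03 and leaving out knockout B 0.13. A term for knockouts B and C, which leaves knockout A alone against WT, turned the log2 fold change to -1.27.

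The same 3 libraries were the highest in some genes of inflammatory monocytes and of neutrophil precursors: in 2 of 8 monocyte markers (Ly6c2 and Ms4a4c), and in 5 of 9 precursor genes (Elane, Mpo, Prtn3, Ctsg and Fcnb) but not in Chil3, Ltf, Camp and Ngp. Ly6c2, the surface marker of inflammatory monocytes, was at 5.04, 40.2 and 28.0 CPM in knockouts A, B and C, against 11.1, 6.82 and 28.3 CPM in WT 1, 2 and 3. The myeloperoxidase gene Mpo of neutrophil precursors was at 49.7, 278 and 222 CPM in the knockouts, against 35.1, 16.5 and 115 CPM in WT. The list of 9 neutrophil precursor genes summed to 113 to 673 CPM in knockouts and 112 to 466 CPM in WT, with 0 of 9 past the threshold. The list of 8 monocyte markers, most of them shared with macrophages, summed to 12600 to 13190 CPM in knockouts and 13300 to 15650 CPM in WT, with 0 of 8 past it. Fn1, the fibronectin gene, which stroma also expresses, made up most of that sum, and the other 7 reached 4221 to 4779 CPM in knockouts and 4376 to 4884 CPM in WT. The 3 libraries were also the highest in 5 of 7 endothelial genes, among them Cdh5, at 29.4, 49.9 and 59.1 CPM in knockouts A, B and C and 27.5, 29.8 and 61.5 CPM in WT 1, 2 and 3, and the 7 endothelial markers together reached 77.5 to 148.2 CPM in knockouts and 76.3 to 153 CPM in WT. By contrast, the macrophage colony-stimulating factor receptor gene Csf1r, carried by monocytes and macrophages alike, was at 1490, 1422 and 1206 CPM in knockouts A, B and C, against 1389, 1337 and 1415 CPM in WT 1, 2 and 3. The part of these cells in the Ccr2 values was not tested.

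Ccr2 and Cx3cr1 are known as opposite marks of inflammatory and patrolling monocytes. Their FPKM ratio, Ccr2 over Cx3cr1, was 0.241, 2.30 and 2.17 in knockouts A, B and C, against 0.288, 0.114 and 0.726 in WT 1, 2 and 3. Ccr2 exceeded Cx3cr1 in knockouts B and C, the libraries set apart by Alb, and in no other library. Knockout A lay within the WT range, so the genotypes overlapped (exact two-sided permutation p = 0.3 for the log2 ratio; the pair was chosen after its values were seen).

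**Figure D3:**
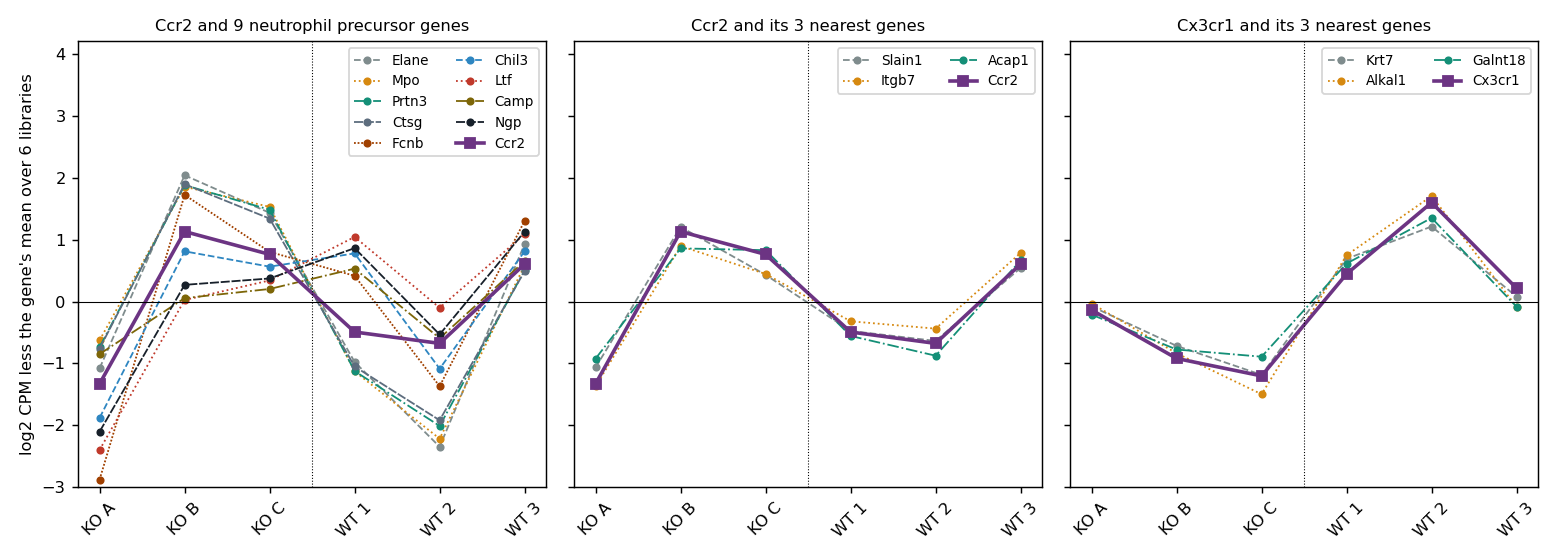
Log2 CPM of single genes less each gene's mean over the 6 libraries, with P2rx7 knockouts A, B and C left of WT 1, 2 and 3. Of the 9 neutrophil precursor genes drawn with Ccr2, 5 are like it highest in knockouts B and C and WT 3, and Chil3, Ltf, Camp and Ngp are not, while Cx3cr1 and its nearest genes are highest in WT 2.

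Of the genes tested, leaving out predicted genes and pseudogenes, those whose profile over the 6 libraries lay nearest to Ccr2 were Slain1, the integrin gene Itgb7 and Acap1, with root mean square distances of 0.177, 0.215 and 0.220 log2 units, against a median of 0.888 over all genes. Nearest to Cx3cr1 were the keratin gene Krt7, Alkal1 and Galnt18 at 0.213, 0.223 and 0.224 (median 0.930). Mapk13, Cavin4 and Slc29a4 lay nearest to Ccr3 at 0.115, 0.133 and 0.150 (median 0.529). The nearest to Cxcr4 was Hspbap1 at 0.0398, followed by Bbs12 and Ctnnd1 at 0.0466 and 0.0582 (median 0.214). For Ackr3 they were Ptprq, Rcan2 and Hspb7 at 0.104, 0.120 and 0.124 (median 0.368), and for Ccrl2 Znrd1as, Dyrk3 and Nipsnap1 at 0.0481, 0.0569 and 0.0613 (median 0.232). Slain1 had low levels, at 0.135 to 1.01 CPM, as had Alkal1 at 0.20 to 2.6 CPM and Slc29a4 at 0.45 to 1.29 CPM. All of the nearest genes named share the same 6 libraries, and the distances describe those libraries only.

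Cxcr4, which retains stem cells and neutrophils in marrow, was at 30.2, 36.7 and 33.8 CPM in knockouts A, B and C, against 35.6, 45.5 and 40.1 CPM in WT 1, 2 and 3. Knockout B lay above WT 1, so the genotypes overlapped. The log2 fold change was -0.27 ± 0.10 (SE; 95% interval -0.51 to -0.03), with an adjusted p of 0.257 in edgeR, and it was -0.18 to -0.36 when 1 library was left out. Ackr3, the scavenging receptor of Cxcl12, was at 6.93, 4.25 and 3.66 CPM in knockouts A, B and C, against 6.32, 4.80 and 3.67 CPM in WT 1, 2 and 3. Knockout A and WT 1 were the highest of their genotypes, and the means lay together (log2 fold change 0.02 ± 0.28 SE; 95% interval -0.62 to 0.66; adjusted p = 0.982, edgeR).

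Per length, their shared ligand was far more abundant than either receptor, at 553 FPKM in knockouts and 293 FPKM in WT on average. Cxcl12, a product of marrow stroma, was at 4021, 4897 and 4702 CPM in knockouts A, B and C, against 2696, 1327 and 3168 CPM in WT 1, 2 and 3. Every knockout was above every WT library, and WT 2, the highest in Cxcr4, was the lowest in Cxcl12. The log2 fold change was 0.92 ± 0.28 (SE; adjusted p = 0.192, edgeR). In the stromal list, 0 of 8 genes passed and all 8 log2 fold changes were positive, with Cxcl12 among the 8. Of all 15478 genes tested, 7924 had a positive log2 fold change. Mif, a cytokine that also binds Cxcr4, averaged 58.0 ± 1.25 CPM in knockouts, against 73.9 ± 9.74 CPM in WT (adjusted p = 0.161, edgeR). Adm, the hormone adrenomedullin, which Ackr3 also takes up, averaged 40.8 ± 7.05 CPM in knockouts, against 59.5 ± 10.5 CPM in WT (adjusted p = 0.183, edgeR), and the interferon-induced ligand Cxcl11 had at most 1 count.

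Ccr1 was the steadiest member. It was at 162, 145 and 152 CPM in knockouts A, B and C, against 168, 162 and 137 CPM in WT 1, 2 and 3, and the highest library was 1.23-fold the lowest. The log2 fold change was -0.02 ± 0.08 (SE; adjusted p = 0.934, edgeR), and its 95% interval of -0.21 to 0.17 bounds a difference between the genotypes more tightly than for any other member. Its ligands Ccl9, Ccl6 and Ccl3 did not pass the threshold. Ccl9 stood at 244 ± 19.8 CPM in knockouts, against 255 ± 30.6 in WT, Ccl6 at 194 ± 21.5 CPM, against 181 ± 41.0, and Ccl3 at 44.0 ± 4.43 CPM, against 37.7 ± 4.15. The related chemokine Ccl4 averaged 8.73 ± 1.21 CPM in knockouts, against 9.85 ± 1.48 CPM in WT. Ccl5, a ligand that Ccr1 shares with Ccr3, was at 5.13, 7.39 and 6.77 CPM in knockouts A, B and C, against 2.41, 1.76 and 3.58 CPM in WT 1, 2 and 3. All knockouts lay above all WT libraries, and edgeR gave a log2 fold change of 1.31 ± 0.26 (SE) at an adjusted p of 0.125.

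Ccrl2 and Cxcr2 were the members of lowest level. Ccrl2, which presents chemerin to neighbouring cells, was at 1.98, 2.66 and 2.86 CPM in knockouts A, B and C, against 2.86, 2.66 and 2.11 CPM in WT 1, 2 and 3, and the genotypes overlapped throughout (log2 fold change -0.03 ± 0.21 SE; adjusted p = 0.964, edgeR). Its ligand gene Rarres2 had 244, 251 and 215 counts in the knockouts, against 146, 70 and 219 in WT (log2 fold change 0.83 ± 0.33 SE; adjusted p = 0.272, edgeR). Cmklr1, the signalling receptor of chemerin, averaged 104 ± 3.32 CPM in knockouts, against 92.0 ± 12.4 CPM in WT (adjusted p = 0.361, edgeR).

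Cxcr2, which draws neutrophils towards the chemokines Cxcl1, Cxcl2, Cxcl3, Cxcl5 and Ppbp, was counted 3, 8 and 12 times in knockouts A, B and C, against 9, 11 and 17 in WT 1, 2 and 3. The genotypes overlapped, and a difference was not detectable at this depth, where 3 counts are 0.129 to 0.159 CPM. Of the mature neutrophil markers, Retnlg had at most 36 and Stfa2l1 at most 16 counts in any library, while Mmp8 lay between 9.89 and 54.0 CPM. The summed level of the 10 mature neutrophil markers, 232 to 257 CPM in knockouts and 249 to 303 CPM in WT, came mostly from Clec4d and Csf3r, which macrophages and monocytes also express, and 0 of 7 tested passed the threshold. Of the ligands, Ppbp, a platelet product, was at 21.4, 68.1 and 57.7 CPM in knockouts A, B and C, against 9.83, 11.7 and 41.9 CPM in WT 1, 2 and 3, highest in the same 3 libraries as Ccr2 (adjusted p = 0.351, edgeR). Cxcl1, Cxcl2 and Cxcl5 averaged 2.61, 2.87 and 0.918 CPM in knockouts, against 3.16, 4.304 and 0.807 CPM in WT, and none of them passed the threshold, while Cxcl3 had at most 3 counts.

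Over the whole ligand list, 0 of 18 tested genes passed the threshold of 0.05 in edgeR, with 6 at an unadjusted p below 0.05, where 16.6% of all genes tested were. DESeq2 called 3 (Ccl5 higher, Adm and Mif lower), beside 3.20% of all genes. Without the filter edgeR called 6 of 21 (Ccl5, Cxcl12 and Rarres2 higher, Adm, Ccl7 and Mif lower), beside 3.20% of the 30301 genes with a count. Without WT 3 it called Ccl5 higher and Ccl7 and Mif lower, beside 1.10% of all genes. The genotypes did not overlap in 5 of the 18, nor in 21.9% of all genes tested. Ccl3, Ccl5, Cxcl12 and Rarres2 were higher in all knockouts, where 11.5% of all genes tested were. Mif was lower in all knockouts, where 10.4% were. The Ccr2 ligands Ccl2, Ccl7 and Ccl12 averaged 44.0, 38.9 and 14.4 CPM in knockouts, against 52.2, 54.4 and 13.8 CPM in WT, with adjusted p-values of 0.469, 0.275 and 0.918. The median log2 fold change of the ligands was -0.0033. Of the 4 other receptors that were tested, 0 passed in edgeR and 0 in DESeq2, with 2 at an unadjusted p below 0.05: Cxcr3, higher in all knockouts (6.998 ± 0.899 CPM in knockouts and 5.29 ± 0.836 CPM in WT; adjusted p = 0.262), and Ackr4 (69.4 ± 4.83 CPM in knockouts and 48.1 ± 18.3 CPM in WT; adjusted p = 0.302). Without WT 3, Ackr4 was called higher.

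**Figure D4:**
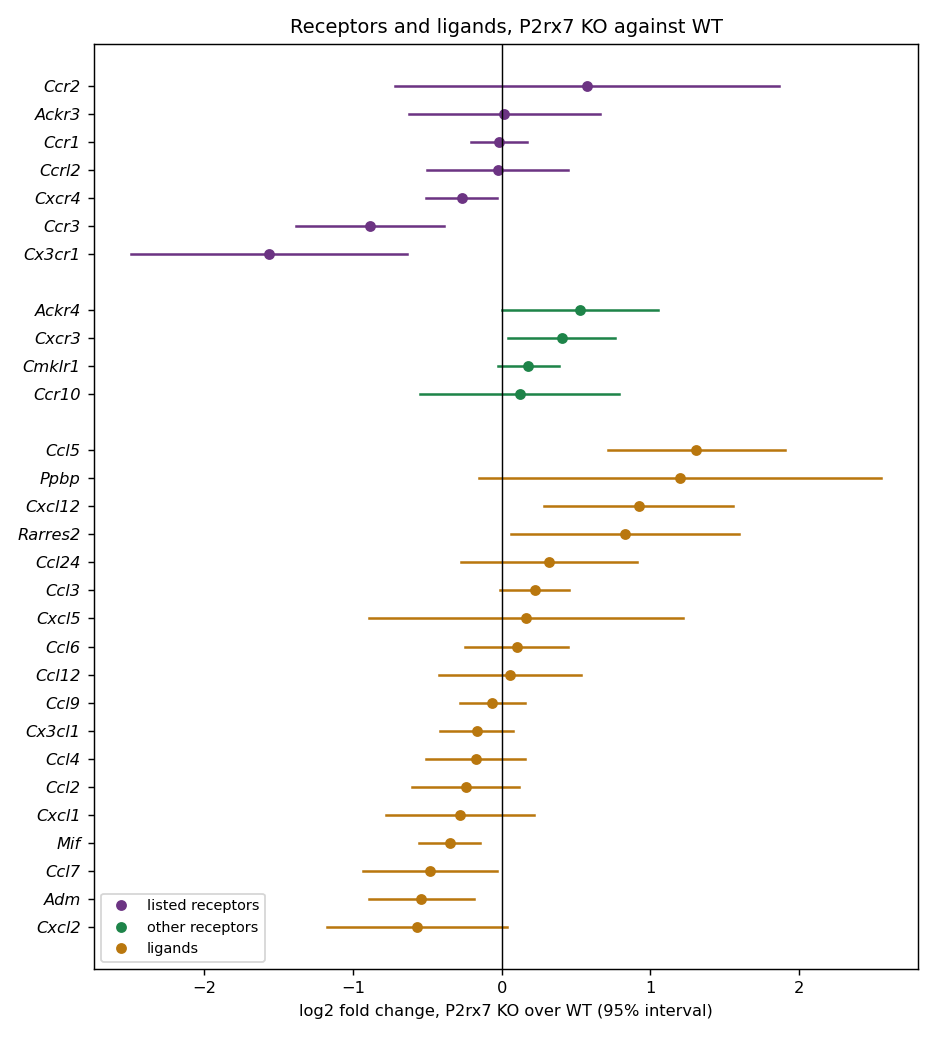
Log2 fold changes of P2rx7 knockout over WT with 95% intervals from the edgeR fit, for the 7 tested members, 4 other receptors and 18 ligands. Cx3cr1 and Ccr3 have the lowest values among the receptors, at -1.57 and -0.89, Ccr1 has a narrow interval around -0.02, and Ccl5 and Cxcl12 are at 1.31 and 0.92.

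The signalling genes downstream of these receptors were expressed throughout, and none passed the threshold. The 27 genes included those for G protein subunits, receptor kinases, arrestins, regulators of G protein signalling, exchange factors, GTPases, lipid kinases and phospholipases. Of the 27, 0 were called by edgeR, and the median log2 fold change was 0.0047. An unadjusted p below 0.05 was found in 3 of the 27 (Rgs1, Rgs2 and Rgs18), against 16.6% of all genes tested. The 3 of highest level were the inhibitory G protein subunit Gnai2 at 343 FPKM in knockouts and 359 in WT, the GTPase gene Cdc42 at 226 in knockouts and 225 in WT, and the arrestin gene Arrb2, which acts in receptor uptake, at 104 in knockouts and 106 in WT. Rgs18, a regulator known from platelets and myeloid cells, was at 27.1, 36.3 and 32.1 CPM in knockouts A, B and C, against 21.9, 20.1 and 25.8 CPM in WT 1, 2 and 3 (log2 fold change 0.49 ± 0.13 SE; adjusted p = 0.161, edgeR). DESeq2 called Rgs18 higher, 1 of the 27, beside 3.20% of all genes. Rgs1, which dampens chemokine signals in lymphocytes, averaged 11.6 ± 1.38 CPM in knockouts, against 17.9 ± 6.01 CPM in WT (adjusted p = 0.253, edgeR; called lower without WT 3, beside 1.10% of all genes).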

How the data were processed

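The authors deposited raw counts and FPKM of 6 libraries in 1 table, with exon positions and summed exon length in a featureCounts layout per the file headers. Dividing the deposited counts by length and a scaled library total gave the deposited FPKM within a relative 1e-06 in 100% of values above 0. The submitters' processing notes name GRCm38 and mm10 as builds. Per the labels' protocols, 1.3 µg of total RNA entered a SMARTer mRNA library. Aligner, counter and use of strand: not given in the sources used here.

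Counts were analysed with edgeR 4.0.16 in R 4.3.3 (filterByExpr, TMM, two-sided glmQLFTest), with genotype as the sole term and Benjamini-Hochberg adjustment over all 15478 genes tested. Standard errors and 95% intervals are those implied by that test. CPM are TMM-scaled, and profiles use log2 CPM with a prior count of 2. The fit was tested on simulated counts. DESeq2 1.42.0, limma 3.58.1 on log2(FPKM + 1), other scalings, no filter, a robust fit, each library left out in turn, and a term for knockouts B and C were alternatives. WT are numbered and knockouts lettered, so the labels pair no samples. Single permutation tests used scipy 1.17.1. Members and gene lists were chosen with earlier results of these data known, so no list was tested as a set. Named were all members, ligands and other receptors, and the 3 genes nearest to each member spanning over 0.5 log2 units. Signalling and marker genes past the threshold were also named, with some of those of highest level or at 0. Outside the marker lists described above, the osteoclast marker Atp6v0d2 passed the threshold (log2 fold change 1.06, adjusted p = 0.0318, edgeR). It was 1 of 4 osteoclast markers tested, where 0.0581% of all genes tested were called higher. Further genes (Epx, Il5ra, Mcpt8, Ly6c2, Mpo, Cdh5, Csf1r, Retnlg, Stfa2l1, Mmp8, Prg2, Cpa3, Gata2, Ms4a4c, Fn1, the neutrophil precursor genes and the red cell and lymphoid markers, and Gh and Alb) were named after their values were seen. Floors of 3 counts cover counting error only. Values of some genes on the lists are not reported here.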

Additional observations from a re-analysis of the deposited data

How the results depend on the processing

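Over 13 alternative settings, 77 of 91 values of the 7 tested members kept their direction and side of the threshold, 3 passed it and 11 changed sign. With all genes that had a count, edgeR called 970 genes in place of 16 and 2 members, Ccr3 (-0.90) and Cx3cr1 (-1.57). DESeq2 called 496 genes and 1 member, Ccr3 (-0.89), and limma on log2(FPKM + 1) called 10 genes, with Ackr3 at -0.0081. With a term for knockouts B and C, 0 genes passed (894 at an unadjusted p below 0.05), Ccr2 was at -1.27 and Ccr1 at 0.062, and the genotype effect then rested on knockout A alone. With 1 library left out, 0 to 172 genes passed, and log2 fold changes were -0.10 to 0.033 for Ccr1, 0.13 to 1.09 for Ccr2, -1.13 to -0.71 for Ccr3, -1.95 to -1.01 for Cx3cr1, -0.36 to -0.18 for Cxcr4, -0.31 to 0.22 for Ackr3 and -0.15 to 0.12 for Ccrl2. The cause of these differences was not tested, and the order of the 8 levels by the mean over all 6 libraries was the same in CPM as in FPKM. Within a genotype it was not: in knockouts Ccr2 had 35.0 and Cxcr4 33.6 CPM, and in WT Cx3cr1 had 54.7 and Cxcr4 40.4 CPM.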
